A study of Mus musculus with 12 samples.

Results

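The glutathione, glucuronosyl and sulfo transferases were followed in mouse liver as 39 genes measured by 51 probe sets, out of 12393 genes and 22626 probe sets tested on the array. A probe set was a member when the platform annotation gave it a single gene symbol of the alpha, kappa, mu, omega, pi or theta glutathione transferases (Gst), the microsomal glutathione transferases (Mgst), the UDP-glucuronosyltransferases (Ugt families 1 to 3) or the sulfotransferases (Sult). This gave 17 Gst, 3 Mgst, 8 Ugt and 11 Sult genes, chosen by name and not by their values, though with earlier results of these data known. The animals were 6 male Pctp-/- mice and, as controls, 6 male wild-type littermates, all on the FVB/NJ background. Every animal of both groups ate a diet with 0.2% fenofibrate by weight for 7 days, starting at 8 weeks of age, and was killed at 9 weeks. Livers without fenofibrate were not analysed here, so the comparison is of genotypes under the drug. RNA of each liver was hybridised to an Affymetrix array of its own. Pctp encodes phosphatidylcholine transfer protein, a cytosolic lipid-binding protein, and fenofibrate is an activator of the nuclear receptor PPARα.

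These enzymes carry out conjugation, the step of detoxification that couples a foreign or endogenous compound to a water-soluble group. Glutathione transferases attach the tripeptide glutathione to electrophiles, glucuronosyltransferases use UDP-glucuronic acid to glucuronidate drugs, steroids, bilirubin and bile acids, and sulfotransferases move a sulfate group from the donor PAPS onto phenols, steroids and amines. The liver is a main site of all these reactions, and many of the genes are known targets of the xenobiotic sensors PXR, CAR and AhR, of the stress-response factor NRF2 and of PPARα.

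The labels were first set against the deleted gene. In Pctp knockout livers the brighter Pctp probe set averaged 82.5 ± 12.3, and in wild-type livers 2855 ± 77.2 (linear intensity, SD, n = 6 each), a difference of -4.87 on the log2(intensity + 16) scale. No knockout array overlapped a wild-type array there. Of 6 measured hepatocyte markers 0 passed limma's test in either direction and 0 had an unadjusted p under 0.05. Array medians lay between 84.01 and 91.2, and 0 pairs of arrays were duplicates. Array intensities carry no read depth, and precision is set by the number of animals. The 5′ to 3′ signal ratio of beta-actin, a measure of transcript length in the labelled RNA, was -1.19 ± 0.0846 in knockout livers and -1.58 ± 0.134 in wild-type livers on the log2 scale (SD, n = 6 each, two-sided exact permutation p = 0.00216, the smallest that 6 against 6 allows, and 0.00289 after adjustment over 4 control transcripts). Gapdh and pyruvate carboxylase were also higher in the knockout with the same p, and the transferrin receptor was not (exact permutation p = 0.652). The part of this difference in the results that follow was not tested.

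Few conjugating transferases differed between Pctp knockout and wild-type livers. With limma's moderated test and Benjamini-Hochberg adjustment over all 22626 probe sets, 3 of 39 genes passed an adjusted p of 0.05, which is 7.69% of the members, while 11.7% of all genes passed. Of these, Ugt3a1 was higher in the knockout, with 6.46% of all genes called higher. Sult1a1 and Gstk1 were lower, with 5.24% of all genes called lower. In the other 36 genes no difference passed the test. Before adjustment, 8 of 39 had a p under 0.05 (20.5%), against 26.2% of all genes.

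The differences were small in size as well. Over the 39 genes the log2 differences ran from -0.58 to 0.21, with a median of -0.017 and 0.015 as the median of all genes. Of the members 19 lay above 0 and 20 below. By the brightest probe set, the 95% interval of the difference lay within 1.5-fold either way for 38 of 39 genes (97.4%, against 92.7% of all genes). The exception was Sult1a1. The interval lay within 1.2-fold for 20 of the 39 (51.3%, against 41.4%). Counted by probe sets, 48 of 51 lay within 1.5-fold (94.1%, against 92.1% of all probe sets). The second probe set of Gstm3 (interval -0.57 to 0.60) and the dim second one of Mgst3 (-0.11 to 0.59) did not. The 1 gene whose knockout arrays all stood apart from all wild-type arrays was Gstk1 (2.56% of the members, against 6.8% of all genes). Folds include the added constant of 16, which draws those of dim probe sets towards 1: 9 of the 39 genes had a mean intensity under 100, and 4 of these were under 16 on every array, so their intervals are narrow in part by construction. Among the 30 brighter genes 3 were called (10%), against 17.8% of all genes as bright.

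**Figure D1:**
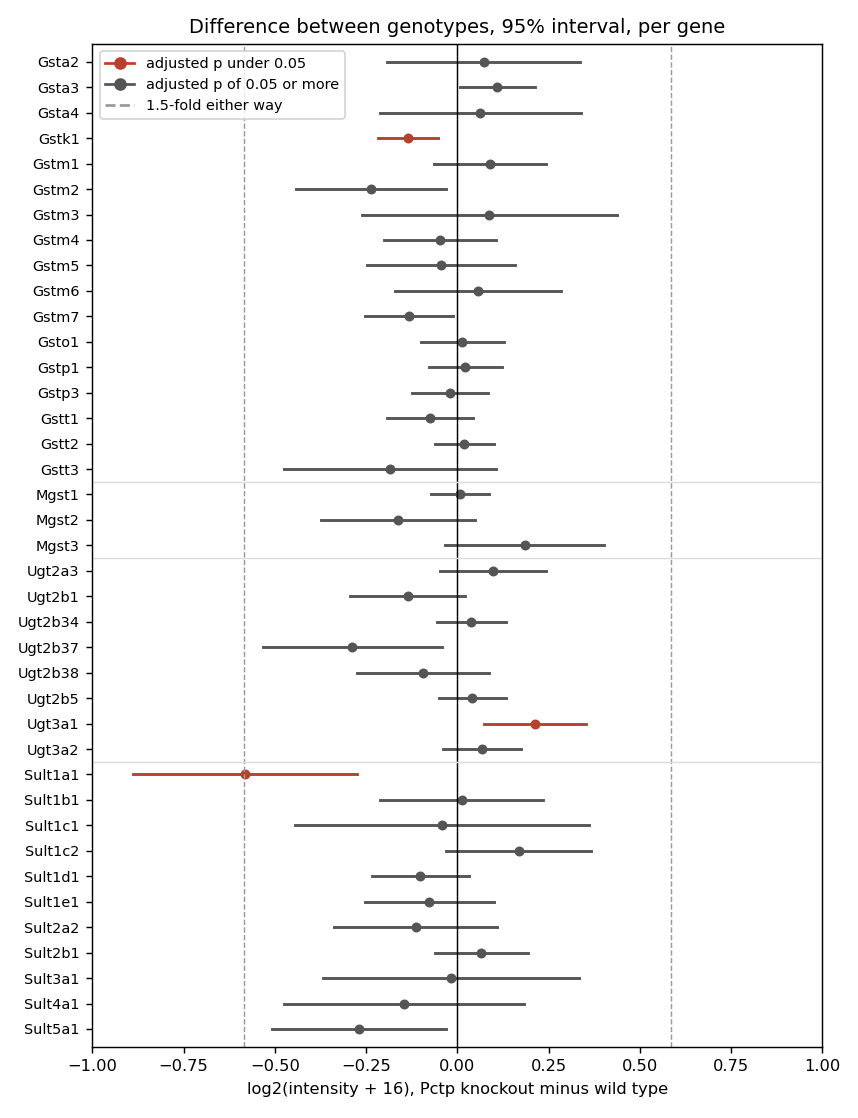
Difference between genotypes for each of the 39 transferase genes, as log2(intensity + 16) in Pctp knockout minus wild type, with its 95% interval. Red marks the 3 genes with an adjusted p under 0.05, and the dashed lines mark 1.5-fold either way; the interval of Sult1a1 alone crosses one of them.

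Among the 17 Gst genes 1 passed the test, and it was lower. Gstk1 encodes the kappa enzyme, which stands apart from the other classes in structure and is found in mitochondria and peroxisomes. Its probe set had a lowest, median and highest intensity of 3047, 3147 and 3218 in knockout livers, against 3292, 3437 and 3566 in wild-type livers. Every knockout liver was thus below every wild-type liver, although the groups lay close together. The means were 3136 ± 63.0 in knockout livers and 3446 ± 97.8 in wild-type livers (SD, n = 6 each), a log2 difference of -0.13 (SE 0.0382, interval -0.22 to -0.052, adjusted p = 0.0369), or 1.10-fold lower. This call is marginal: dropping any one of 10 arrays ended it (knockout replicates 1, 2, 3, 4 and 6, and replicates 1, 3, 4, 5 and 6 of the wild type), with an adjusted p between 0.0536 and 0.0769.

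Alpha-class enzymes, which conjugate products of lipid peroxidation and reduce lipid hydroperoxides, showed 0 calls by limma in 3 genes, and 1, Gsta3, had an unadjusted p under 0.05. Gsta3, whose mouse enzyme is known for conjugating activated aflatoxin, had 4912, 5069.8 and 5193 as lowest, median and highest intensity in knockout livers and 4185, 4751 and 4959.6 in wild-type livers. Of the 6 knockout arrays 5 lay above every wild-type array. The log2 difference was 0.11 with an interval of 0.006 to 0.21 and an adjusted p of 0.165. Gsta2 averaged 2186 ± 291 in knockout and 2092 ± 392 in wild-type livers (SD, n = 6 each, adjusted p = 0.765). Gsta4, whose enzyme prefers the aldehyde 4-hydroxynonenal, averaged 1083 ± 172 in knockout and 1038 ± 194 in wild-type livers (SD, n = 6 each, adjusted p = 0.807).

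The mu class is a cluster of 7 genes, Gstm1 to Gstm7, on chromosome 3, and 0 of the 7 passed limma's test. The log2 differences lay between -0.24 for Gstm2 and 0.089 for Gstm1. Gstm1, whose chosen probe set may also bind transcripts of its close relatives, had 6316, 6949 and 7772 as lowest, median and highest intensity in knockout livers and 5877, 6501 and 7677 in wild-type livers. The ranges nearly coincided (log2 difference 0.089, SE 0.0711, adjusted p = 0.477), and the 4 probe sets of the gene gave differences between 0.044 and 0.11. Gstm2 and Gstm7 were the members of the class with an unadjusted p under 0.05, with adjusted p of 0.133 and 0.146. For Gstm7 the probe sets differ in sign, at -0.13 for the brighter one and 0.14 for the other (adjusted p = 0.331). Near-identical members of this class can share probes, so single members are uncertain.

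The pi, theta and omega classes had 0 calls by limma in 6 genes, and 0 had an unadjusted p under 0.05. Gstp1, the pi-class enzyme, had 8312, 8495 and 8939.6 as lowest, median and highest intensity in knockout livers and 8058, 8305 and 9247 in wild-type livers. The knockout range lay wholly within the wild-type range. Its log2 difference was 0.021 (SE 0.0461, interval -0.078 to 0.12, adjusted p = 0.822), and its neighbour Gstp3 differed by -0.019 (adjusted p = 0.852). Of the theta class, which handles small halogenated compounds, Gstt1, Gstt2 and Gstt3 had adjusted p between 0.424 and 0.801. Gsto1, the omega-class enzyme that acts as a thiol transferase and dehydroascorbate reductase, differed by 0.014 (adjusted p = 0.904).

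The microsomal glutathione transferases, membrane proteins unrelated in sequence to the cytosolic enzymes, had 0 calls by limma in 3 genes, and 0 had an unadjusted p under 0.05. Mgst1 had 8528, 8813 and 9037 as lowest, median and highest intensity in knockout livers and 8490.2, 8791 and 8897 in wild-type livers, and its log2 difference was 0.0074 with an interval of -0.071 to 0.086 (adjusted p = 0.93). Its group means were closer than the spread between animals of either genotype. Mgst3, a membrane enzyme with glutathione peroxidase activity, had the smallest p of the family and averaged 1064 ± 180.0 in knockout and 925 ± 58.7 in wild-type livers (SD, n = 6 each, log2 difference 0.18, adjusted p = 0.275). Its knockout livers were the more scattered, from 799 to 1317, and took in the whole wild-type range. Mgst2, whose enzyme can make leukotriene C4, stayed under 16 on all arrays, with 6.47 ± 3.47 in knockout and 8.99 ± 2.16 in wild-type livers (SD, n = 6 each, adjusted p = 0.324).

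Of the glucuronosyltransferases, 1 of 8 passed the test, and it was not one of the classical UDP-glucuronic acid users. Ugt3a1 belongs to a family whose human enzyme transfers N-acetylglucosamine. Its brighter probe set had a lowest, median and highest intensity of 1228, 1248 and 1409.7 in knockout livers, against 972, 1088 and 1243 in wild-type livers. All but the highest wild-type liver lay below the whole knockout group. The name of this probe set marks probes shared between transcripts. The means were 1274 ± 67.6 in knockout livers and 1099 ± 104 in wild-type livers (SD, n = 6 each), a log2 difference of 0.21 (SE 0.0645, interval 0.074 to 0.35, adjusted p = 0.0485), or 1.16-fold higher. The second probe set pointed the same way without passing, at 871 ± 50.2 in knockout and 794 ± 59.7 in wild-type livers (SD, n = 6 each, log2 difference 0.13, adjusted p = 0.172). The call was lost without any one of the 6 knockout arrays or of wild-type replicates 2, 3, 5 and 6 (adjusted p from 0.0619 to 0.0981), and under several other settings given in the closing section. The neighbouring Ugt3a2 averaged 2496 ± 68.9 in knockout and 2384 ± 149.8 in wild-type livers (SD, n = 6 each, log2 difference 0.068, adjusted p = 0.428).

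The Ugt2 enzymes, which glucuronidate steroids, bile acids and drugs, had 0 calls by limma in 6 genes, and 1, Ugt2b37, had an unadjusted p under 0.05. Ugt2b5 had 5911, 6057 and 6596 as lowest, median and highest intensity in knockout livers and 5808, 5884 and 6344 in wild-type livers (log2 difference 0.041, SE 0.0428, adjusted p = 0.599). The brighter probe set of Ugt2b34 differed by 0.038 (interval -0.057 to 0.13, adjusted p = 0.64). Both intervals lie within 1.2-fold either way. The interval of the second Ugt2b34 probe set does not. Its log2 difference was 0.14 (interval -0.034 to 0.31, up to 1.24-fold), also without passing the test. The widest difference of the family was -0.29 for Ugt2b37, a dim probe set with 47.8 ± 10.2 in knockout and 61.4 ± 8.61 in wild-type livers (SD, n = 6 each, adjusted p = 0.123).

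Probe sets for the Ugt1a locus carry several symbols, because the Ugt1a transcripts share their downstream exons, and so fell outside the selection by single symbol. Their values bear on the bilirubin- and phenol-conjugating enzymes and are given for that reason. The 3 probe sets averaged 4724 ± 172, 6822 ± 217 and 5263 ± 100.4 in knockout livers, against 4674 ± 76.5, 6705 ± 163 and 4994 ± 151 in wild-type livers (SD, n = 6 each). None passed the test, with adjusted p of 0.861, 0.751 and 0.235. The knockout arrays of the third nevertheless all lay above its wild-type arrays, with a lowest of 5189 in knockout livers and a highest of 5159 in wild-type livers. They do not tell the isoforms apart.

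The sulfotransferases held the largest change of the 39 genes. Sult1a1, the main phenol sulfotransferase of the liver, was lower in knockout livers. Its probe set had a lowest, median and highest intensity of 983, 1208 and 1362 in knockout livers, against 1326, 1612 and 2476 in wild-type livers. The groups overlapped in 1 animal each way, knockout replicate 4 at 1362 and wild-type replicate 1 at 1326, and the other 5 wild-type livers lay above every knockout liver. The means were 1170.3 ± 155 in knockout livers and 1786 ± 428 in wild-type livers (SD, n = 6 each), a log2 difference of -0.58 (SE 0.141, interval -0.89 to -0.28, adjusted p = 0.0189), or 1.496-fold lower. Wild-type livers were the more scattered, with replicates 2 and 5 at 2476 and 2126. With any one array left out the call held in all 12 fits, with log2 differences from -0.66 to -0.48. The authors' deposited table of 727 selected probe sets lists Sult1a1 at a fold of -1.52. Its p-value there is 0.0151, from a test not stated, and it was called present on 100% of arrays in both groups. It is the 1 member probe set in that table.

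Sult1d1, which in the mouse sulfates catecholamines and other amines, gave different answers by probe set. The brighter one had 1289, 1463 and 1521 as lowest, median and highest intensity in knockout livers and 1398, 1528 and 1722 in wild-type livers, with broad overlap (log2 difference -0.10, adjusted p = 0.328). The other probe set averaged 724 ± 45.5 in knockout and 859 ± 51.8 in wild-type livers (SD, n = 6 each, log2 difference -0.24, adjusted p = 0.0143). On it every knockout array, at most 786, lay below every wild-type array, at least 805. By probe sets, 4 of 51 passed the test (7.84%, against 12% of all probe sets), and the groups did not overlap for 2, against 6.75% of all probe sets.

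The other sulfotransferases gave no call. Sult5a1 had 142, 158 and 180.0 as lowest, median and highest intensity in knockout livers and 159, 195 and 249 in wild-type livers (log2 difference -0.27, SE 0.11, adjusted p = 0.138). The lowest 2 wild-type livers lay inside the knockout range and the others above it. Sult1b1, an enzyme of thyroid hormone sulfation, averaged 178 ± 30.5 in knockout and 175 ± 19.4 in wild-type livers (SD, n = 6 each, adjusted p = 0.963). The remaining 7 genes were dim. They include Sult1e1, the oestrogen sulfotransferase, at 2.1 ± 1.58 in knockout and 3.14 ± 2.27 in wild-type livers, and Sult2a2, a hydroxysteroid sulfotransferase, at 52.2 ± 8.46 in knockout and 57.8 ± 9.2 in wild-type livers (SD, n = 6 each). Signals this dim bound a fold only weakly.

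**Figure D2:**
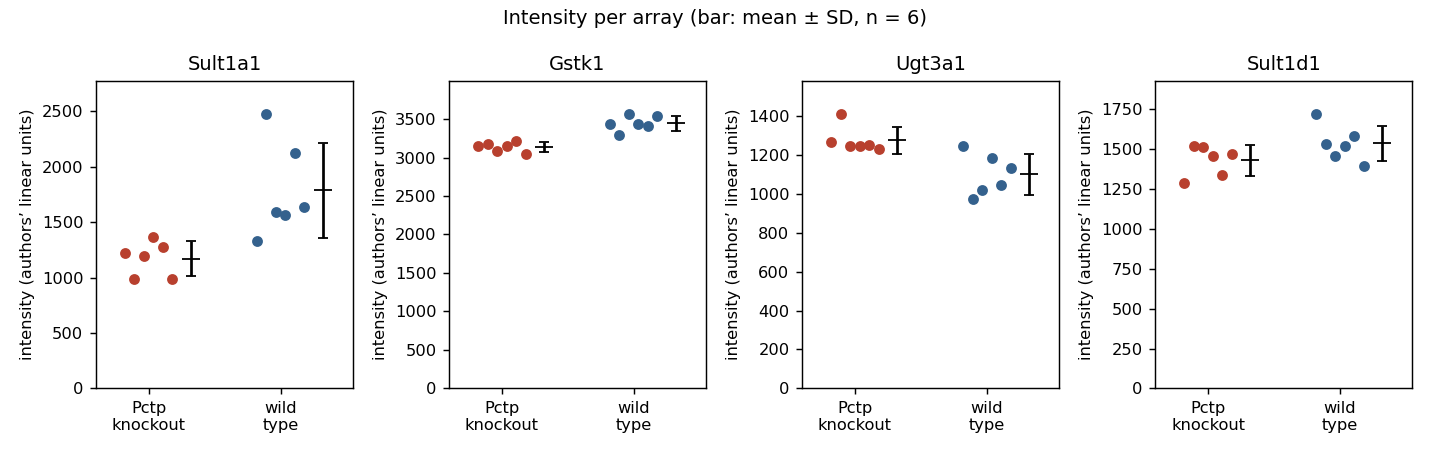
Intensity on each of the 12 arrays for the 3 transferase genes with an adjusted p under 0.05 and for the brighter probe set of Sult1d1, which did not pass. Each point is 1 liver, Pctp knockout left and wild type right, and the bar is the mean ± SD (n = 6); the groups stand apart for Gstk1 and overlap for the other genes.

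Promoters of the 3 called genes are shown, as these are the genes that differed between the genotypes. Each runs from 250 bases before to 50 after a RefSeq transcription start of GRCm38.p6, 5′ to 3′ on the strand of the gene. For this, 3 short motifs were searched on both strands: TGACNNNGC, the core of the antioxidant response element that NRF2 binds, GCGTG, the core of the xenobiotic response element that AhR binds, and GTTAAT, a part of the site of the liver factor HNF1. Capitals mark matches.
Sult1a1: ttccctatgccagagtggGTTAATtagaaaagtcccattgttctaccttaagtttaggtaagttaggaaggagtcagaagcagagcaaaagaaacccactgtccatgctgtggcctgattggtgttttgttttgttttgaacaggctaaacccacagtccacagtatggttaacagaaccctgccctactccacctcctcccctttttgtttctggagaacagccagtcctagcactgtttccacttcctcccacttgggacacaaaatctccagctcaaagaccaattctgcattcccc
Gstk1: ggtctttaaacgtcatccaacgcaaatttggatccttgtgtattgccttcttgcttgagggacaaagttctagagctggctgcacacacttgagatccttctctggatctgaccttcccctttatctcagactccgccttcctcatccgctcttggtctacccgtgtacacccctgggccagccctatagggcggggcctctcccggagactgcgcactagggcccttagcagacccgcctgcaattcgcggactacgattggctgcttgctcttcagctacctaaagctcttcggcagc
Ugt3a1: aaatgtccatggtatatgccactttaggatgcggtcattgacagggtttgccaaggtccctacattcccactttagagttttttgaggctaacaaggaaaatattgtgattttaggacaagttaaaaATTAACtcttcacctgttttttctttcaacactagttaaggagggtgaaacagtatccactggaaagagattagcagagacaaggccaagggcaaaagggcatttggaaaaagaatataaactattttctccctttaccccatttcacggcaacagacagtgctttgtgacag
The windows are chr7:126676369-126676668 on the minus strand for Sult1a1, chr6:42245685-42245984 on the plus strand for Gstk1 and chr15:9279579-9279878 on the plus strand for Ugt3a1. Both Sult1a1 and Ugt3a1 hold 1 match to GTTAAT, on the minus strand (read as ATTAAC) in Ugt3a1, and the Gstk1 window holds no match to any of the 3. Over 43 promoters of 34 transferase genes, GTTAAT was in 11.6%, against 7.10% of all 32851 promoters. TGACNNNGC was in 9.30%, against 12.4%, and GCGTG was in 25.6%, against 32.4%. A match describes letters only, and Gsta4, Gstt2, Sult2a2, Sult4a1 and Ugt3a2 had no promoter in the table.

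The reactions around the transferases were compared by lists of genes of the neighbouring steps. In the supply of the sulfate and glucuronate donors, 1 of 7 genes was higher and 1 lower. Papss2, which makes the sulfate donor PAPS, had 1092, 1207 and 1328 as lowest, median and highest intensity in knockout livers and 1435, 1579.9 and 1735 in wild-type livers. No knockout liver reached the lowest wild-type liver. The log2 difference was -0.39 (SE 0.0597, adjusted p = 0.00218). Slc35d1, which carries UDP-glucuronic acid into the endoplasmic reticulum, was higher at 1639 ± 108 in knockout livers, against 1318 ± 126 in wild-type livers (SD, n = 6 each, log2 difference 0.31, adjusted p = 0.0115).

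In the supply of glutathione 0 of 11 measured genes were higher and 2 lower, with a median log2 difference of -0.040. Cth, the enzyme that releases cysteine from cystathionine, had 612, 826 and 928 as lowest, median and highest intensity in knockout livers and 1005, 1074 and 1190.1 in wild-type livers, without overlap (log2 difference -0.44, adjusted p = 0.00831). Gclm, the modifier subunit of the enzyme that starts glutathione synthesis, averaged 732 ± 68.4 in knockout and 903 ± 56.7 in wild-type livers (SD, n = 6 each, log2 difference -0.30, adjusted p = 0.0124). Its catalytic partner Gclc gave no call (log2 difference 0.22, adjusted p = 0.291). Among 12 other enzymes and proteins of the glutathione-using families 1 was higher, Glo1, which clears methylglyoxal, at 2997 ± 124 in knockout and 2627 ± 202 in wild-type livers (SD, n = 6 each, log2 difference 0.19, adjusted p = 0.0425), and 0 were lower. Among 15 further conjugating and hydrolysing enzymes 0 passed the test, 2 had an unadjusted p under 0.05, and the median log2 difference was 0.0057.

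Of 11 measured receptors and sensors that act on these genes 2 were higher and 4 lower (6.46% and 5.24% of all genes). By limma 9 of the 11 had an unadjusted p under 0.05, against 26.2% of all genes. Among the 9 without a call were Nr1i2, which encodes PXR, Nr1i3, which encodes CAR, and Ahr. Their log2 differences were -0.24, 0.20 and 0.19 (adjusted p = 0.127, 0.0954 and 0.159). Nfe2l2, which encodes NRF2, had 1209.9, 1314 and 1661 as lowest, median and highest intensity in knockout livers and 563, 726 and 897 in wild-type livers. All knockout livers were above all wild-type livers, and the log2 difference was 0.89 (SE 0.113, adjusted p = 0.000791), or 1.86-fold. Keap1, the adaptor that targets NRF2 for degradation, was lower at 406 ± 27.1 in knockout livers, against 518 ± 37.9 in wild-type livers, also without overlap (SD, n = 6 each, log2 difference -0.34, adjusted p = 0.00459). Ppara, the receptor of fenofibrate, was lower at 1601 ± 165 in knockout livers, against 2173 ± 214 in wild-type livers (SD, n = 6 each, log2 difference -0.44, adjusted p = 0.00449). Nqo1, a much used readout of NRF2 picked here after its values were seen, averaged 245 ± 30.1 in knockout and 246 ± 49.7 in wild-type livers (SD, n = 6 each, log2 difference 0.0057, interval -0.24 to 0.26, adjusted p = 0.986). The remaining calls, named because they complete the count, were Hnf4a, higher at 0.32, and Rxra and Maff, lower at -0.27 and -0.55 on the log2 scale.

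Of 13 measured transporters of conjugates 1 was higher and 1 lower. Abcc6, an efflux transporter of the MRP family, averaged 344 ± 21.8 in knockout and 465 ± 15.2 in wild-type livers without overlap (SD, n = 6 each, log2 difference -0.42, adjusted p = 0.000538). Slco1b2, an uptake transporter of bile acids, bilirubin and conjugates, averaged 4147 ± 155 in knockout and 3354 ± 383 in wild-type livers (SD, n = 6 each, log2 difference 0.31, adjusted p = 0.0113). Over all 6 lists 13 of 69 measured genes passed the test (18.8%, against 11.7% of all genes). Of the 13, 6 were receptors and sensors. Most of the list genes were bright: 57 of the 69 had a mean intensity of at least 100. Among all genes as bright 17.8% were called. The lists were chosen with earlier results of these data known, so these shares are not a test of the lists.

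**Figure D3:**
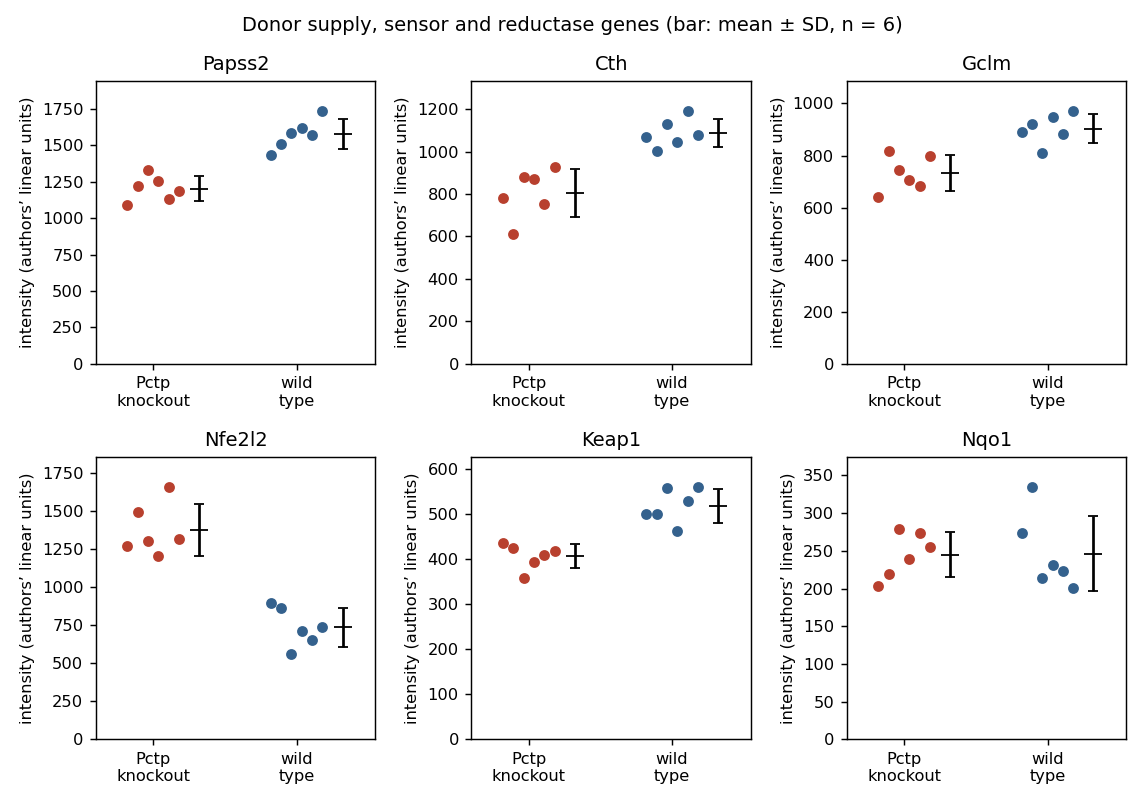
Intensity on each of the 12 arrays for genes around the transferases: Papss2 (sulfate donor), Cth and Gclm (glutathione supply), Nfe2l2 and Keap1 (stress sensing) and Nqo1. Each point is 1 liver, Pctp knockout left and wild type right, and the bar is the mean ± SD (n = 6); the groups stand apart for Papss2, Cth, Nfe2l2 and Keap1, nearly so for Gclm, and share one range for Nqo1.

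Conjugating enzymes are unevenly spread along the liver lobule, so markers of the zones and of other cells are given beside these results. Over all genes 6.46% were called higher in the knockout and 5.24% lower. Of 9 pericentral hepatocyte markers 0 were higher and 3 lower (Cyp1a2, Oat and Rhbg), while 5 had an unadjusted p under 0.05, among them Glul with a log2 difference of 0.13 (unadjusted p = 0.0258 by limma). The list had summed intensities of 17009 to 18623 in knockout livers and 18277 to 19668 in wild-type livers. Of 6 measured periportal markers 0 were higher and 4 lower (Pck1, Hal, Cps1 and Aldh1b1), with sums of 19321 to 20533 in knockout livers and 22332 to 24748 in wild-type livers. Pck1 weighs heavily in these sums, with a mean of 2743 in knockout and 5182 in wild-type livers. Cyp2f2 and Arg1 differed by -0.032 and -0.046 on the log2 scale without passing the test. Of 7 stellate cell and fibroblast markers 4 were higher (Dcn, Reln, Rgs5 and Ecm1) and 0 lower, with sums of 3149 to 3702 in knockout livers and 2619 to 3207 in wild-type livers. Of 3 measured erythroid markers Alas2 was lower, with a log2 difference of -0.58 (adjusted p = 0.0121), and Slc4a1 had 0.30 without passing the test (adjusted p = 0.188, unadjusted p = 0.049 by limma). In the cholangiocyte, Kupffer cell, endothelial and lymphocyte lists 0 of 5, 7, 6 and 5 markers were called by limma, and 0, 1, 1 and 2 had an unadjusted p under 0.05. The part of cell composition in the transferase results was not tested, and in whole liver fewer cells of a type and less RNA per cell cannot be told apart.

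Several mu and alpha enzymes differed widely between animals of one genotype. The brighter Gstm3 probe set gave 2697, 4233 and 5229 as lowest, median and highest intensity in knockout livers and 3144, 3606 and 5570.0 in wild-type livers, so that the highest animal was 1.94 times the lowest in the knockout group and 1.77 times in the wild-type group. The genotype difference was 0.088 on the log2 scale, with a within-genotype SD of 0.31 (adjusted p = 0.787). Mgst1, by contrast, had a within-genotype SD of 0.028. Within the knockout group all 10 genes Gstm1 to Gstm7 and Gsta2 to Gsta4 were lowest in replicate 1. Within the wild-type group 8 of the 10 were highest in replicate 2, the exceptions being Gsta3 and Gstm7. Among the 29 other members 10 were lowest in knockout replicate 1 and 5 highest in wild-type replicate 2. Among all 39 genes 20 were lowest in knockout replicate 1 and 13 highest in wild-type replicate 2. The 20 include Sult2b1, whose knockout replicates 1, 3, 4 and 5 tied at the lowest value of 1. The share of all genes on the array with these lowest or highest animals was not counted. The pattern is therefore not shown to be particular to mu and alpha genes. These counts are for the brightest probe set of each gene. A second probe set of Gsta3 was lowest in knockout replicate 6 at 4358, with replicate 1 at 4360.3. That of Gstm7 was lowest in knockout replicate 3 at 127.9, with replicate 1 at 129.9.

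Across the 6 animals of a genotype, the log2 level of Gstm3 was set against the other 9 genes, the beta-actin ratio and the array median, which made 22 relations. Pearson's r was positive for 9 of 9 genes in knockout livers, from 0.217 to 0.908, and for 8 of 9 in wild-type livers, from -0.076 to 0.954. None passed adjustment over the 22 (lowest adjusted exact permutation p = 0.0611 for r; 0.0917 for Spearman's rho). For Gstm1, r was 0.907 in knockout livers (rho 0.943, exact permutation p = 0.00833 and 0.0167) and 0.939 in wild-type livers (rho 0.771, exact permutation p = 0.0222 and 0.103). Without the 2 animals farthest from the median of Gstm3 (knockout replicates 1 and 5, wild-type replicates 2 and 5), it was 0.737 in knockout livers and 0.592 in wild-type livers. For Gstm2 and Gstm4 in knockout livers r turned to -0.175 and -0.610 without them, and for Gstm5 and Gsta3 it was 0.322 and 0.328, against 0.908 and 0.809 with them, so those relations rest on these animals. In wild-type livers r for Gstm4 was 0.359 without them, against 0.954. Against the beta-actin ratio r was -0.464 in knockout and 0.061 in wild-type livers, and against the array median -0.611 and 0.705. Without the same 2 animals of each group, r was 0.588 and -0.027 for the ratio, and 0.902 and -0.104 for the median. These relations too therefore depended on the animals left out. The genes share their arrays, neighbouring members may share probes, and 6 animals a group limit what can be said.

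**Figure D4:**
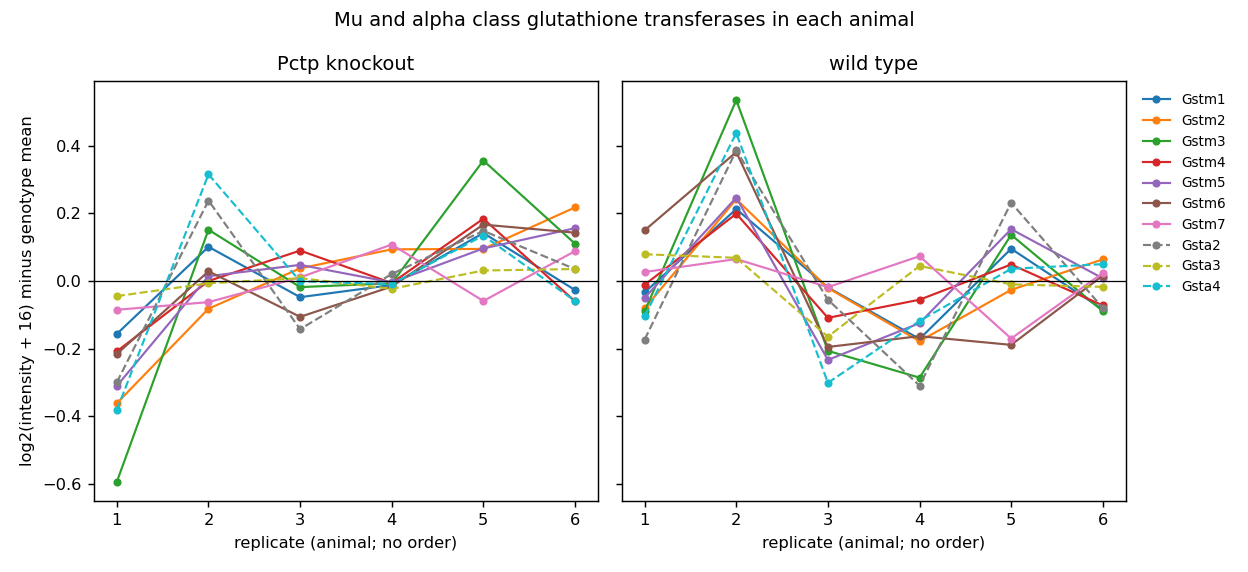
Deviation of each animal from the mean of its genotype, as log2(intensity + 16), for the 7 mu-class genes (solid) and 3 alpha-class genes (dashed), Pctp knockout left and wild type right. Lines join the points of a gene and mark no order of animals; most genes are low in knockout replicate 1 and high in wild-type replicate 2.

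Promoters of Gstm3, of Gstm5 from the same cluster and of the alpha-class Gsta2 are shown as examples of the mu and alpha genes compared between animals.
Gstm3: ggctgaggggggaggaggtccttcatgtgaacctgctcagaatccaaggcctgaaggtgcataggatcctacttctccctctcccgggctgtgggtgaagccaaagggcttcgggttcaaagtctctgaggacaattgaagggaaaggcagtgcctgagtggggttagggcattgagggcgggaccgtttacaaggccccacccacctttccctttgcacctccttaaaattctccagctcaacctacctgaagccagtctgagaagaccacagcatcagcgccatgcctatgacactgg
Gstm5: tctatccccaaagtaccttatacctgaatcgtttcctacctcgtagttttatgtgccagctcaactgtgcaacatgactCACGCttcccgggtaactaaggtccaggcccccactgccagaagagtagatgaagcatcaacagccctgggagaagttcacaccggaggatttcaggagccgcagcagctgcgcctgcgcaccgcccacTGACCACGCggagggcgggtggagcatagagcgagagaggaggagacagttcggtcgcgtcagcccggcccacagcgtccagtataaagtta
Gsta2: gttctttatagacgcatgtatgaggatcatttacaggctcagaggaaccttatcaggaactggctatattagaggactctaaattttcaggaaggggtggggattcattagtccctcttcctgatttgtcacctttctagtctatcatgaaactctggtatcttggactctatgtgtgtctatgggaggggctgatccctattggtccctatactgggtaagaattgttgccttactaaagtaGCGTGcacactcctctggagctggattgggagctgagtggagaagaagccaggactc
The windows are chr3:107969125-107969424 on the minus strand for Gstm3, chr3:107895604-107895903 on the plus strand for Gstm5 and chr9:78347096-78347395 on the minus strand for Gsta2, again with matches in capitals. Gstm3 holds none of the 3 motifs. Gstm5 holds TGACNNNGC once, overlapping a GCGTG match on the minus strand (read as CACGC), and a further CACGC. Gsta2 holds GCGTG once. In all, TGACNNNGC was found for 4 genes, Gsta3, Gstm5, Gstm7 and Mgst1, and the absence of these letters from a window says nothing about the factor.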

How the data were processed

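Liver RNA of 6 Pctp knockout and 6 wild-type mice, labelled as biotinylated cRNA per the labels' protocols, was measured on 12 Affymetrix arrays, 1 animal an array. Intensity values are linear and were summarised and scaled by the authors before they were deposited, with a program not given in the sources used here. A second deposited table lists 727 probe sets picked by the authors. Per the file headers it holds a signed fold, treated here as a score, a p-value, and per group the percent of arrays called present. Whether that p-value was adjusted is not stated. The test used is not stated in the sources used here, and 24 of its columns, with values per array, stayed unused.

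The main scale was log2(intensity + 16), computed from the deposited intensities as they stand, with each difference taken as knockout minus wild type. Of 22690 probe sets 64 controls were left out. The other 22626 went through lmFit and eBayes of limma 3.58.1 under R 4.3.3, with two-sided p-values adjusted by Benjamini-Hochberg over all of them and a threshold of 0.05. Folds were computed back from log2 differences. Gene names came from the platform annotation, which gave 1 symbol to 20380 probe sets, several to 691 and none to 1555. For each gene the probe set with the highest mean stood for it. Names and neighbours were checked against the reference gene table of GRCm38.p6, in which all 39 members matched, and promoters are from RefSeq. Of the chosen probe sets 11 have names ending in a, s or x, which mark probes shared between transcripts.

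Control ratios and relations were tested by two-sided exact permutation in Python 3.11.15. The procedure was tested on simulated data. The members and the lists were chosen with earlier results of these data known. Genes named by rule are Pctp, every called member, the 3 genes of each family with the highest mean, the gene with the smallest p in a family without a call, and up to 3 called genes of each list by smallest p. All others were named after their values were seen. Same-numbered knockout and wild-type arrays did not deviate together (correlations from -0.078 to 0.078), so the numbers were not used as pairs. Alternatives were other added constants, array weights, a filter on dim probe sets, averaging the probe sets of a gene, median centring, quantile normalization, the replicate number as a block, a trended and robust variance and leaving out each array. P-values measure the spread between single animals, 6 a group.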

Additional observations from a re-analysis of the deposited data

Results flagged for a closer look

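Each genotype's 6 values were examined for a single animal that stands apart, by the gap to its nearest neighbour over the whole range. Of 78 groups 4 had one, and chance gives about 1 in 20. Ugt2b5 was 6596 in knockout replicate 2 and 5911 to 6144 in the other knockout livers. Ugt3a1 was 1409.7 in the same animal and 1228 to 1264 in the other knockout livers. Its difference no longer passed the test without that array, nor without any one of the other knockout arrays. The other pair of cases are dim probe sets: Sult1e1 was 5.13 in knockout replicate 1 and 1 to 2.26 in the other knockout livers, and Sult2b1 was 5.43 in knockout replicate 6 and 1 to 1.76 in the other knockout livers.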

How the results depend on the processing

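Of the 39 genes' differences under 21 alternatives, 781 values kept their side of the threshold, 27 lost it, 2 gained it and 0 changed direction after a call. With the replicate block, 0 transferase genes were called (0 higher, 0 lower) and 1 transferase probe set, with adjusted p of 0.0557 for Sult1a1, 0.125 for Gstk1 and 0.120 for Ugt3a1; the numbers do not pair the animals. The 1 gene higher in the knockout, Ugt3a1, became 0 with an added constant of 1 (adjusted p = 0.0606), array weights (0.0595), the mean of its probe sets (0.082) and median centring (0.0972). With the trended and robust variance 2 genes were higher, the second being Gsta3 (0.0496). The mean of its probe sets brought Sult1d1 past the threshold (log2 difference -0.17, adjusted p = 0.0358) and made 3 genes lower. Leaving out 1 array gave 1 to 2 transferase genes called, 0 to 1 higher and 1 to 2 lower, 2 to 3 transferase probe sets, 11 to 14 genes of the neighbouring steps and 2006 to 2742 probe sets overall. The genes of the neighbouring steps were also counted under each alternative, which was chosen after seeing the data, with 11 to 17 called against 13. Over all probe sets 57.0% of calls were higher in the knockout, 49.3% after quantile normalization and 44.0% after median centring, which moved the median difference by -0.018 and -0.033. Signal over background limits the 9 dim genes.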

Other observations

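The deviations of Gstm3 from its genotype mean were set against those of all 10754 other probe sets with a mean of at least 100, over the 12 arrays, as a description with no test. Among the 20 most alike, 9 were transferase probe sets and 1 more carried several symbols including Gsta2. The 9 were the second probe set of Gstm3 itself (rank 1, 0.980), all 4 of Gstm1, and those of Gstm4, Gstm5, Gsta2 and Gsta4. In all, 40 member probe sets had a mean of at least 100, the one of Gstm3 used here among them. Clcn7, a lysosomal chloride transporter, ranked 3 with a correlation of 0.939, and Slco1a4, a hepatic uptake transporter of organic anions, ranked 14 with 0.888. Slco1a4 ran from 100.3 to 191 in knockout livers and from 124 to 238 in wild-type livers. The other probe sets among the 20 were of Trim11, Cryl1, Slc48a1, Nudt19, Cspg5, Haus3, Tmem141 and Tkt. These probe sets share arrays and scaling, and Gstm members can share probes.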
